A study of Mus musculus with 8 samples.

Results

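The transcription factors and cofactors that set the identity of regulatory T (Treg) cells were followed through the 8 RNA libraries of a study of reversible *Brg1* deletion in mouse Treg cells. The 10 genes were chosen by name from the 53360 gene identifiers of the deposited tables that the annotation holds. They are *Foxp3*, the Ikaros family genes *Ikzf1*, *Ikzf2*, *Ikzf3* and *Ikzf4*, the gene of the DNA-binding factor RUNX1 and of its partner CBFβ (*Runx1* and *Cbfb*), and the forkhead genes *Foxo1*, *Foxo3* and *Foxp1*. All 10 had at least 5 CPM (reads scaled to a common library size) in every library.

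The total Treg experiment had 6 libraries, 1 per condition, from spleen and lymph nodes of C57BL/6 mice aged 3–4 weeks. The WT library was labelled R26 CAG-FlpoER, Brg F/+, Foxp3 YFP-Cre/+, so that it had 1 floxed *Brg1* allele. Mosaic females (Brg F/ΔR with R26 CAG-FlpoER) gave a *Brg1*-sufficient library, labelled Foxp3 +/+, and a *Brg1*-deleted library, labelled Foxp3 YFP-Cre. In these females X inactivation leaves the untargeted *Foxp3* allele active in the first subset and the YFP-Cre allele in the other. The rKO1 mice (R26 CAG-FlpoER, Brg F/ΔR, Foxp3 YFP-Cre/YFP-Cre by label) gave an untreated library and, on Day 7 after tamoxifen (TAM), a GFP+ *Brg1*-deleted and a GFP− *Brg1*-reexpressed library. The label of the reexpressed library gives Brg F/+. The aTreg experiment had 2 libraries of CD44hi activated Treg cells of rKO1 mice, sorted on Day 7 after TAM, labelled *Brg1*-deleted (Brg F/F) and *Brg1*-reexpressed (Brg F/+), both Foxp3 YFP-Cre/YFP-Cre. Cre was driven by the *Foxp3* locus, the ΔR allele is a gene trap with GFP that Flpo removes, and FlpoER was driven by the CAG promoter at R26. As the aTreg libraries were made in another experiment, no level is compared between the experiments.

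FOXP3 is the forkhead factor that defines Treg cells, and its loss causes fatal autoimmunity in mice and in people with IPEX. It binds DNA together with cofactors, among them RUNX1 bound to CBFβ and the Ikaros family zinc-finger proteins Helios (*Ikzf2*), Aiolos (*Ikzf3*) and Eos (*Ikzf4*), while Ikaros itself (*Ikzf1*) recruits chromatin remodelling and corepressor complexes in lymphocytes. FOXO1 and FOXO3 bind the *Foxp3* locus, act in Treg development and drive genes of resting T cells, and they leave the nucleus when AKT phosphorylates them. FOXP1 is the forkhead relative of FOXP3 that keeps T cells quiescent. BRG1, encoded by *Smarca4*, is the ATPase of the BAF chromatin remodelling complex.

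The start sites of the 2 genes with the widest range of levels, *Foxp3* and *Foxp1*, are shown with the letters that forkhead factors prefer. Each line gives the 250 bases before a RefSeq transcript start (GRCm38.p6), 5′ to 3′ on the strand of the gene, with the forkhead letters TAAACA, or TGTTTA on the other strand, in capitals.
*Foxp3* chrX:7579426-7579675 (+): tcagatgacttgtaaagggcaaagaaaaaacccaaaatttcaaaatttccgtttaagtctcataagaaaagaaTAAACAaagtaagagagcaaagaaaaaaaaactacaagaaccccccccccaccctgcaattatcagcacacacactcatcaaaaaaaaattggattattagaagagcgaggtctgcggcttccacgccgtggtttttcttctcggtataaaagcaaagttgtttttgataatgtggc
*Foxp1* chr6:99520994-99521243 (-): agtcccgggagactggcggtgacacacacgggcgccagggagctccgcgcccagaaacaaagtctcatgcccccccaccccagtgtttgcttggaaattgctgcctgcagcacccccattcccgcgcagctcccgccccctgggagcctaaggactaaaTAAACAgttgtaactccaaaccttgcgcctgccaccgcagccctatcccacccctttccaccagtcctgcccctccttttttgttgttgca
*Foxp1* chr6:99266516-99266765 (-): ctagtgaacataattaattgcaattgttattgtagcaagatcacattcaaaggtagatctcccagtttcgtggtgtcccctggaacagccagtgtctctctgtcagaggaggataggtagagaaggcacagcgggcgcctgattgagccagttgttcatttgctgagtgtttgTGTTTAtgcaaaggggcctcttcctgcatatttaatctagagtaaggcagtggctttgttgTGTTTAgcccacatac
*Foxp1* chr6:99028299-99028548 (-): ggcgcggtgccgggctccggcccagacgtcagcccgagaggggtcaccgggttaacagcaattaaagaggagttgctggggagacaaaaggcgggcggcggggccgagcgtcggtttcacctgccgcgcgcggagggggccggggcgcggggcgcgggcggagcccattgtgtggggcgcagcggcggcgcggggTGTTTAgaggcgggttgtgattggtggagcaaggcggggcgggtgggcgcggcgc
The forkhead letters lay 177 bases before the start in the *Foxp3* window and 91, 77 and 16, and 55 bases before it in the *Foxp1* windows. Of the 12 start-site windows held for 7 of the 10 genes, these 4 had a match, against 12.03% of 32851 mouse windows of that length. A second *Foxp3* window had none. The RUNX letters TGTGGT and the Ikaros letters TGGGAA, searched on both strands, were in 0 of the 12 windows, against 14.0% and 21.6% of all windows. A match is a run of letters and not a site of binding. *Ikzf2*, *Ikzf3* and *Ikzf4* had no entry.

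The libraries held between 16291853 and 24052217 reads on genes, so that 1 read was worth between 0.0412 and 0.0603 CPM. *Smarca4* stood at 88.0 CPM in the WT library and at 77.2 in the mosaic *Brg1*-sufficient library. It stood at 47.2 in mosaic *Brg1*-deleted cells, 44.1 in the untreated rKO1 library and 36.1 in the GFP+ library after TAM, against 58.1 in the reexpressed library. These orders follow the labels, although the exons before the gene trap are still counted. In aTreg cells *Smarca4* stood at 71.2 CPM in the library labelled deleted and at 59.4 in the library labelled reexpressed, which goes against the labels, and the first of these also had a WT column heading. All directions in aTreg cells below are therefore by label only. The library labelled reexpressed also stood apart by its erythroid genes, with a summed level of 22862 CPM over 6 of 6 genes against 1174 CPM in the other aTreg library and 154 to 630 CPM in the total Treg libraries. *Foxp3*, *Ikzf2*, *Il2ra* and *Ctla4*, which mark Treg cells, and the general T cell genes *Cd3d*, *Cd3e*, *Cd3g*, *Trac* and *Cd4* were at 5 CPM or more in every library. The 4 Y-linked genes had 0 reads in the WT and mosaic libraries and between 1356 and 4155 reads in each rKO1 library. The untreated rKO1 library had 0.523 CPM of *Xist*, against 45.5 to 164 CPM in the other total Treg libraries, which goes against a label with 2 copies of the X-linked YFP-Cre allele. The treated rKO1 libraries held both *Xist* and Y-linked reads. Sex thus changes together with disease between the healthy and the rKO1 libraries, and the part of each was not tested.

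**Figure D1:**
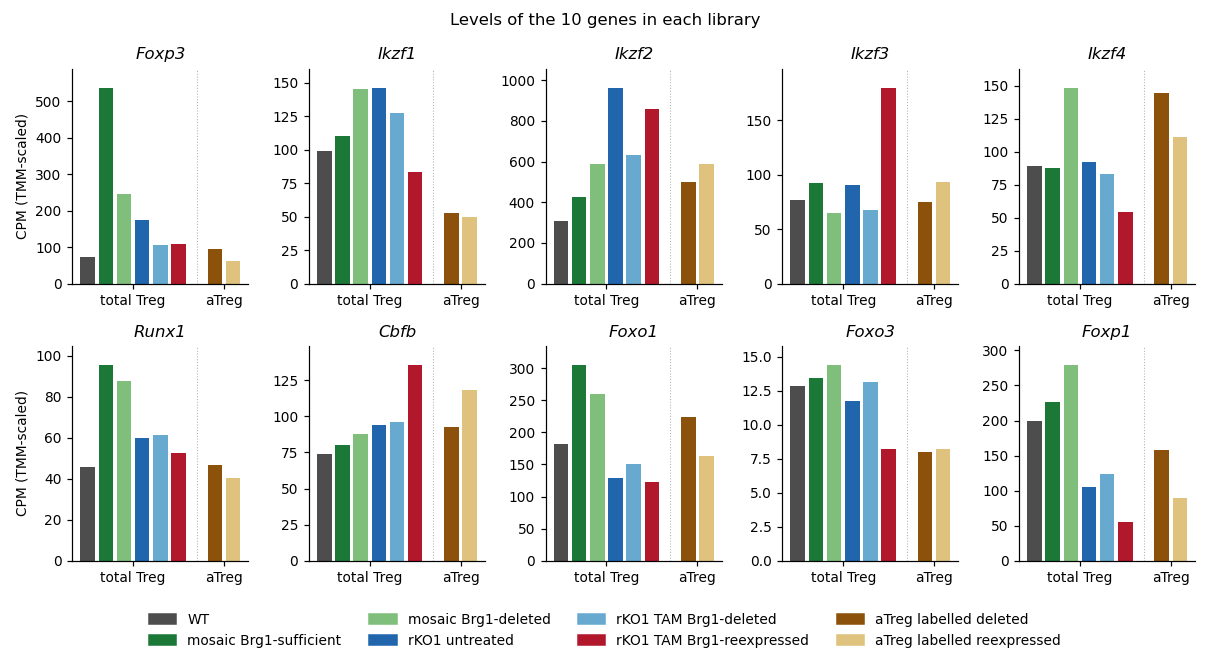
Level of each of the 10 genes in the 6 total Treg and the 2 aTreg libraries, in TMM-scaled CPM on a linear axis from 0. Each bar is 1 library, and the dotted line parts the 2 experiments, between which no level is compared. *Foxp3* was highest in the mosaic *Brg1*-sufficient library (536 CPM), *Ikzf3* in the *Brg1*-reexpressed library (180 CPM) and *Foxp1* was lowest there (55.5 CPM).

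A gene was called changed between 2 libraries when it differed at least 2-fold after scaling by the trimmed mean of M-values (TMM). With 1 library per condition there is no replicate error and no p-value. The intervals given are exact 95% binomial intervals, which hold counting error alone. As the nearest measure of the spread between libraries, each difference is set beside that of 2 pairs with the same BRG1 state, namely WT and mosaic *Brg1*-sufficient cells, and *Brg1*-deleted rKO1 cells with and without TAM. In these bulk libraries, fewer cells that express a gene and less RNA per cell cannot be told apart.

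Read per exon length, the genes spanned a wide range of abundance. In the WT library *Ikzf2* led with an FPKM of 26.5 after TMM scaling, followed by *Cbfb* with 21.2, *Foxo1* with 20.9, *Foxp3* with 18.3 and *Ikzf1* with 17.1. *Ikzf4* and *Foxp1* had an FPKM of 14.9 and 14.5, *Ikzf3* of 8.80, *Runx1* of 3.88 and *Foxo3* of 1.70. *Foxp3* led only in the mosaic libraries, with an FPKM of 134 in *Brg1*-sufficient and 61.5 in *Brg1*-deleted cells, and *Ikzf2* led in the other 6. *Foxo3* was the least abundant of the 10 in every library, with an FPKM of 1.06 to 1.90.

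In the mosaic females, where the comparison asks what loss of BRG1 does in healthy mice, 1 of the 10 genes was called, against 6.12% of the 10066 genes tested. This was *Foxp3*, which fell 2.19-fold in the *Brg1*-deleted cells. In rKO1 mice after TAM, where it asks what BRG1 does once it returns in inflamed mice, 2 of the 10 were called, against 12.8% of 10316 genes. *Ikzf3* rose 2.67-fold and *Foxp1* fell 2.24-fold in the *Brg1*-reexpressed cells. Between the aTreg libraries 0 of the 10 were called, against 6.44% of 10035 genes. The median size of the log2 difference was 0.35 over the 10 genes and 0.29 over all genes tested in the mosaic pair, 0.55 and 0.38 in the rKO1 pair, and 0.33 and 0.29 in the aTreg pair. The counts of 1, 2 and 0 genes thus lay near the share of all genes.

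**Figure D2:**
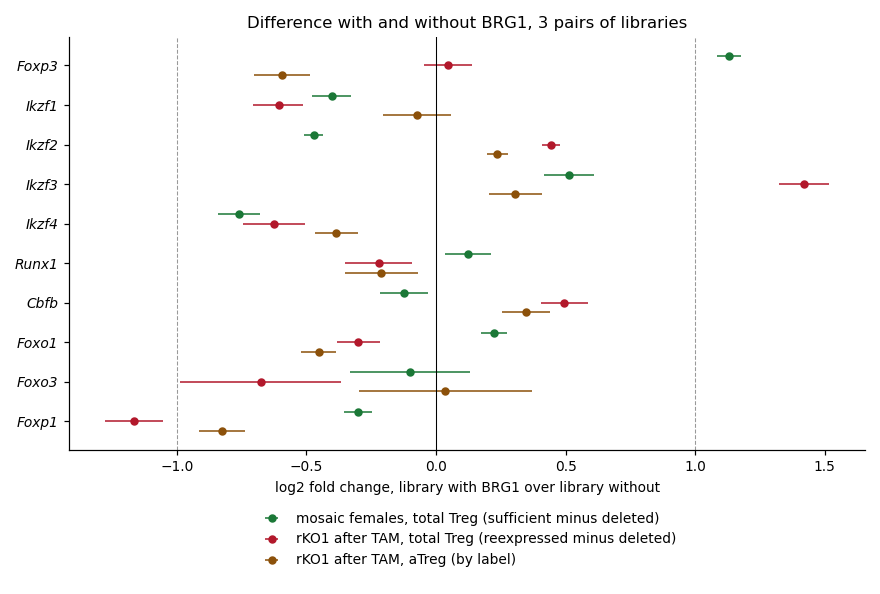
Log2 fold change of each gene between the library with BRG1 and the library without it, in mosaic females, in rKO1 mice after TAM and, by label, in aTreg cells. Points are the fold changes, bars the exact 95% binomial intervals, for counting error alone, and dashed lines mark 2-fold. *Foxp3* in the mosaic pair and *Ikzf3* and *Foxp1* in the rKO1 pair lie past the dashed lines.

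*Foxp3* (ENSMUSG00000039521, chrX:7573644-7595245, plus strand, GRCm38) varied the most among the total Treg libraries. It stood at 73.1 CPM in WT, 536 in mosaic *Brg1*-sufficient, 245 in mosaic *Brg1*-deleted, 174 in untreated rKO1, 106 in TAM-treated *Brg1*-deleted and 109 in *Brg1*-reexpressed cells. The highest level was 7.34 times the lowest, a ratio that 7.76% of 11041 genes matched or passed, with a median ratio of 1.997 over these genes. The only library labelled Foxp3 +/+ held the highest level, and the 5 other libraries, labelled with the YFP-Cre allele, lay between 73.1 and 245 CPM.

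The 2 libraries that differed the most were both *Brg1*-sufficient. *Foxp3* was 7.34-fold lower in WT than in mosaic *Brg1*-sufficient cells (interval 6.92–7.79), a difference matched by 0.779% of the genes tested in that pair. In the mosaic pair it was 2.19-fold lower without BRG1 (interval 2.12–2.26). The BRG1 state and the *Foxp3* allele change together in that pair and cannot be told apart. Among libraries labelled with the YFP-Cre allele, *Foxp3* was 3.35-fold higher in mosaic *Brg1*-deleted cells than in WT cells (interval 3.15–3.57). This is the opposite order for BRG1. The WT label also holds an untargeted *Foxp3* allele. By the study's methods, Treg cells for sequencing were gated on CD4, CD25 and YFP, and cells with YFP use the YFP-Cre allele. The mosaic *Brg1*-sufficient cells were YFP-negative, so that this gate did not hold for every library. Which allele the WT cells used was not tested in the reads. *Foxp3* was 1.41-fold lower in untreated rKO1 than in mosaic *Brg1*-deleted cells (interval 1.35–1.47). The WT library also had the highest summed level of 10 myeloid marker genes among the total Treg libraries, 483 CPM against 86.8 to 236, a difference whose part in these values was not tested. *Il2ra*, the gene of the CD25 used in the sort, stood at 276 CPM in WT and 292 CPM in mosaic *Brg1*-sufficient cells, *Ctla4* at 120 and 118 CPM, *Cd3e* at 373 and 674 CPM and *Cd4* at 153 and 255 CPM.

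After TAM, *Foxp3* did not differ beyond counting error in rKO1 mice between cells with and without BRG1, at a ratio of 1.03 (interval 0.969–1.103), and the sign of this difference flipped with scaling by total reads and with the FPKM as deposited. Both lay below the untreated rKO1 library, the deleted cells 1.64-fold (interval 1.55–1.74). In aTreg cells *Foxp3* stood at 93.8 CPM in the library labelled deleted and 62.1 CPM in the library labelled reexpressed, 1.51-fold lower in the latter (interval 1.40–1.63). *Foxp3* was thus not called in the 3 pairs compared among rKO1 libraries. The fall in the mosaic pair lost its call when libraries were scaled by total reads, at a log2 fold change of −0.998, just inside the 2-fold limit. Of the *Foxp3* exon bases, 31.5% overlap other annotated genes, and the reads on the shared bases were not counted apart. In the WT library *Flicr* had 305 and *Ppp1r3f* 366 reads over their whole length, beside 1212 on *Foxp3*, and in mosaic *Brg1*-sufficient cells 511 and 100 beside 11358. The highest count of *Ppp1r3f* was thus in the library with the lowest *Foxp3*, and its part in that level was not tested.

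*Ikzf2*, which encodes Helios and marks most thymus-derived Treg cells, was the most abundant Ikaros family gene in all 8 libraries. It stood at 308 CPM in WT, 424 in mosaic *Brg1*-sufficient, 588 in mosaic *Brg1*-deleted, 961 in untreated rKO1, 631 in TAM-treated *Brg1*-deleted and 858 in *Brg1*-reexpressed cells. The 3 libraries from rKO1 mice were all higher than the 3 from healthy mice, although TAM-treated *Brg1*-deleted cells were only 1.07-fold above mosaic *Brg1*-deleted cells. *Ikzf2* was 3.12-fold higher in untreated rKO1 than in WT cells (interval 3.03–3.22) and 2.27-fold higher than in mosaic *Brg1*-sufficient cells (interval 2.21–2.32), past the limit in both comparisons. It remained 2.79-fold above WT after reexpression (interval 2.70–2.88). Within the mosaic females it was 1.39-fold higher without BRG1 (interval 1.35–1.42), and within the treated rKO1 mice 1.36-fold higher with BRG1 (interval 1.33–1.39). Neither of these exceeded the 1.52-fold difference between the rKO1 libraries that both lacked BRG1. With the trend of fold change along exon length removed, the difference within the treated rKO1 mice was the larger. The log2 fold changes were then 0.73 within the treated mice and −0.47 between the libraries that both lacked BRG1. In aTreg cells it stood at 499 CPM in the library labelled deleted and 588 CPM in the library labelled reexpressed.

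*Ikzf3*, which encodes Aiolos, had a single high library. It stood at 180 CPM in *Brg1*-reexpressed cells, against 77.0 in WT, 92.4 in mosaic *Brg1*-sufficient, 64.7 in mosaic *Brg1*-deleted, 90.9 in untreated rKO1 and 67.1 in TAM-treated *Brg1*-deleted cells. The reexpressed library was 2.67-fold above the deleted library of the same mice (interval 2.502–2.86) and 2.33-fold above WT (interval 2.18–2.49). The rise over the deleted library was kept under all 7 alternatives that gave it a value, with log2 fold changes from 1.07 to 1.61. The pairs with one BRG1 state differed by 1.20-fold and 1.35-fold. *Ikzf3* was also 1.43-fold higher with BRG1 in the mosaic females (interval 1.33–1.53) and 1.24-fold higher in the aTreg library labelled reexpressed (interval 1.15–1.33), at 93.1 against 75.3 CPM, both under the limit.

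*Ikzf4*, which encodes Eos, a FOXP3 corepressor, was higher without BRG1 in each of the 3 pairs and not called in any. It stood at 148 CPM in mosaic *Brg1*-deleted and 87.4 in mosaic *Brg1*-sufficient cells, a 1.69-fold difference (interval 1.60–1.79). It stood at 83.2 CPM in TAM-treated *Brg1*-deleted and 54.0 in *Brg1*-reexpressed cells, a 1.54-fold difference (interval 1.42–1.67). The aTreg libraries labelled deleted and reexpressed had 145 and 111 CPM. WT and untreated rKO1 cells, at 89.4 and 92.5 CPM, did not differ from each other or from mosaic *Brg1*-sufficient cells beyond counting error. The 2 pairs with one BRG1 state differed by 1.02-fold and 1.11-fold.

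*Ikzf1*, which encodes Ikaros, ranged from 83.4 CPM in *Brg1*-reexpressed to 146 CPM in untreated rKO1 cells. The 3 libraries without BRG1 had 145, 146 and 127 CPM and lay above the 3 with BRG1, which had 99.0, 110 and 83.4 CPM. *Ikzf1* was 1.32-fold higher without BRG1 in the mosaic pair (interval 1.25–1.39) and 1.52-fold higher in the rKO1 pair (interval 1.42–1.63), against 1.11-fold and 1.15-fold in the pairs with one BRG1 state. None of these passed 2-fold. In aTreg cells *Ikzf1* stood at 52.6 and 49.9 CPM, which did not differ beyond counting error (ratio 0.950, interval 0.868–1.04).

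The shares of the family differed between libraries. Of the summed length-scaled signal (FPKM) of the 5 Ikaros family genes, *Ikzf2* took 38.8% in WT and 62.2% in *Brg1*-reexpressed cells. *Ikzf3* took 17.3% in the reexpressed library and between 6.81% and 12.9% in the 5 other total Treg libraries. *Ikzf4* and *Ikzf1* took 7.59% and 12.2% in the reexpressed library, the lowest shares among the 6. The ratio of *Ikzf3* to *Ikzf1*, per length, was 1.42 in the reexpressed library and 0.294 to 0.554 in the other total Treg libraries. *Ikzf5*, the family member that is not on the list of 10, took at most 1.43%.

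**Figure D3:**
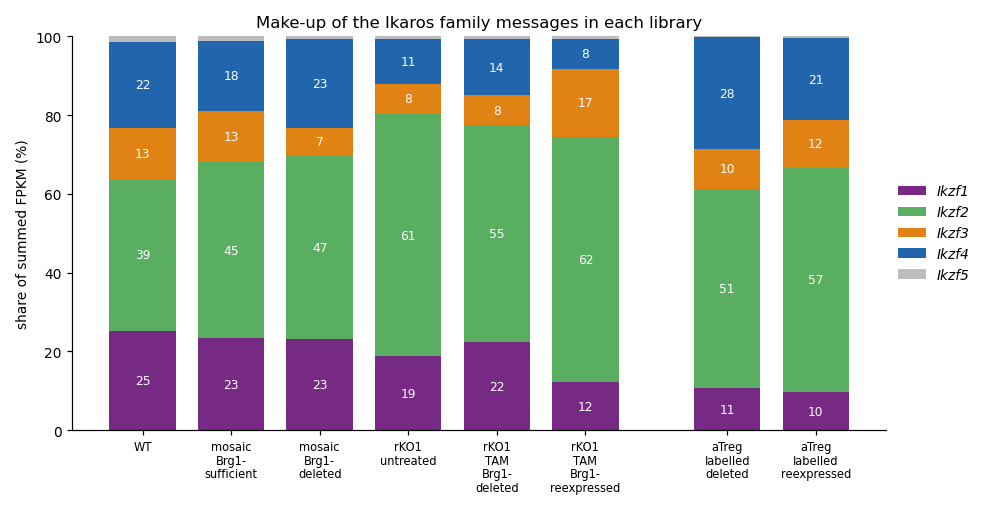
Share of each Ikaros family gene in their summed FPKM, in percent, for each of the 8 libraries. Each bar is 1 library and the numbers are rounded shares. *Ikzf2* takes the largest share everywhere, and *Ikzf3* takes 17.3% in the *Brg1*-reexpressed library.

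*Runx1*, the DNA-binding partner of FOXP3, stood at 45.9 CPM in WT, 95.4 in mosaic *Brg1*-sufficient, 87.6 in mosaic *Brg1*-deleted, 60.1 in untreated rKO1, 61.4 in TAM-treated *Brg1*-deleted and 52.7 in *Brg1*-reexpressed cells. Both mosaic libraries lay above the other 4. *Runx1* was 2.08-fold lower in WT than in mosaic *Brg1*-sufficient cells (interval 1.91–2.26) and was called there beside *Foxp3*, so that 2 of the 10 genes were called between these libraries with one BRG1 state, against 9.32% of 10138 genes. This call was lost with median-of-ratios scaling, with the FPKM as deposited and with the trend of fold change along exon length removed (log2 fold changes of −0.998, −0.94 and −0.80). With and without BRG1 the gene differed by 1.09-fold in the mosaic and 1.16-fold in the rKO1 pair, in opposite directions that flipped with total-read scaling in the first and with the length trend removed in the other. The aTreg libraries labelled deleted and reexpressed had 47.0 and 40.6 CPM.

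*Cbfb*, whose product stabilizes RUNX proteins on DNA, was not called in any of the comparisons. It stood at 73.8 CPM in WT, 80.3 in mosaic *Brg1*-sufficient, 87.4 in mosaic *Brg1*-deleted, 93.7 in untreated rKO1, 96.0 in TAM-treated *Brg1*-deleted and 135 in *Brg1*-reexpressed cells. The last was the highest, 1.41-fold above the deleted cells of the same mice (interval 1.32–1.5). The aTreg library labelled reexpressed was 1.27-fold above the other (interval 1.19–1.36), at 118 against 92.7 CPM.

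Among the other *Runx* genes, *Runx2* was called in both total Treg pairs. *Runx2*, best known from bone, rose 2.25-fold in *Brg1*-reexpressed cells, from 20.4 to 45.8 CPM, and fell 2.75-fold in mosaic *Brg1*-deleted cells, from 15.4 to 5.60 CPM. In the aTreg libraries labelled deleted and reexpressed it stood at 13.6 and 21.8 CPM, in the direction of the other 2 pairs but under the limit. *Runx2* also differed 2.75-fold between WT and mosaic *Brg1*-sufficient cells, with BRG1 in both. *Runx3*, which acts in cytotoxic and Th1 cells and can also pair with FOXP3, ranged from 17.4 CPM in WT to 63.0 CPM in untreated rKO1 cells. Per length, *Runx1* took 48.6%, 45.7% and 60.3% of the *Runx* signal in the WT, mosaic *Brg1*-sufficient and mosaic *Brg1*-deleted libraries and 25.7%, 30.1% and 23.2% in untreated, deleted and reexpressed rKO1 cells. The rKO1 libraries were thus all below the healthy ones in this share. *Runx2* took 27.0% in the reexpressed library and 5.16% to 13.3% in the other total Treg libraries.

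*Foxo1* separated the healthy from the rKO1 libraries, which also differ in sex, and not the libraries by BRG1. It stood at 181 CPM in WT, 304 in mosaic *Brg1*-sufficient and 260 in mosaic *Brg1*-deleted cells, and at 128, 151 and 122 CPM in untreated, TAM-treated *Brg1*-deleted and *Brg1*-reexpressed rKO1 cells. All 3 rKO1 libraries were below the 3 healthy ones. The gap was narrow, with WT 1.20-fold above TAM-treated *Brg1*-deleted cells, while WT and mosaic *Brg1*-sufficient cells differed 1.68-fold. *Foxo1* was 2.03-fold lower in untreated rKO1 than in mosaic *Brg1*-deleted cells (interval 1.94–2.13), 2 libraries without BRG1, between which 2 of the 10 genes were called, against 15.1% of 10409 genes. It was 2.37-fold lower than in mosaic *Brg1*-sufficient cells (interval 2.26–2.49) and 1.41-fold lower than in WT cells (interval 1.34–1.49). The first of these calls was kept in 3 of 7 alternatives. With BRG1 *Foxo1* was 1.17-fold higher in the mosaic pair and 1.23-fold lower in the rKO1 pair. The aTreg libraries labelled deleted and reexpressed had 224 and 164 CPM, a 1.37-fold difference (interval 1.31–1.43).

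*Foxo3* was scarce, with 138 to 349 reads in a total Treg library. It stood between 11.8 and 14.4 CPM in 5 of them, where neighbours in the order did not differ beyond counting error but the lowest and the highest did (ratio 0.819, interval 0.689–0.971), and at 8.24 CPM in *Brg1*-reexpressed cells, 1.60-fold below the deleted cells of the same mice (interval 1.29–1.98). In aTreg cells it stood at 8.03 and 8.23 CPM (ratio 1.03, interval 0.813–1.29), with a sign that flipped under total-read scaling and in the FPKM as deposited. *Foxo4* was at 2.92 to 7.22 CPM in total Treg cells and *Foxo6* at 0 reads, which allows at most 3 reads in each library.

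*Foxp1* had the second widest range, and its order followed both the mouse and BRG1. It stood at 200 CPM in WT, 226 in mosaic *Brg1*-sufficient, 279 in mosaic *Brg1*-deleted, 105 in untreated rKO1, 124 in TAM-treated *Brg1*-deleted and 55.5 in *Brg1*-reexpressed cells. The highest was 5.02 times the lowest, a ratio that 12.1% of genes matched or passed. The rKO1 libraries were all below the healthy ones, and the reexpressed library lay below the other rKO1 libraries. *Foxp1* was 2.66-fold lower in untreated rKO1 than in mosaic *Brg1*-deleted cells (interval 2.53–2.80), without BRG1 in either. It was 2.24-fold lower in *Brg1*-reexpressed than in *Brg1*-deleted cells of the same mice (interval 2.07–2.42), which left it 3.60-fold below WT (interval 3.34–3.87). In the mosaic females it was 1.23-fold lower with BRG1 (interval 1.19–1.28). In the aTreg library labelled reexpressed it was 1.77-fold lower (interval 1.67–1.88), at 88.9 against 158 CPM, the largest difference of the 10 genes in that pair. The pairs with one BRG1 state differed by 1.13-fold and 1.19-fold.

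The fall of *Foxp1* after reexpression was kept under 6 of 7 alternatives. It lost its call, at a log2 fold change of −0.83, when the trend along exon length was removed. Genes with 10 kb of exons or more, which include *Foxp1*, *Ikzf2* and *Runx1*, had a median log2 fold change of −0.25 in that comparison, against 0.31 for genes under 2 kb. Among the relatives of *Foxp1*, *Foxp4* stood at 5.67 CPM in the reexpressed library and between 8.42 and 17.9 CPM in the other total Treg libraries, and *Foxp2* had 0 reads in all 8 libraries, which allows at most 3 reads in each.

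**Figure D4:**
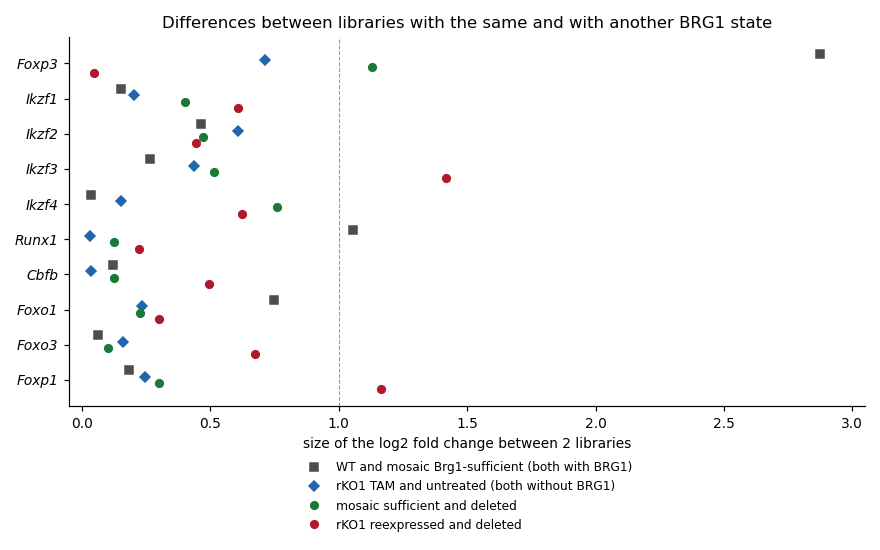
Size of the log2 fold change of each gene in the 2 pairs of total Treg libraries with the same BRG1 state (squares and diamonds) and in the 2 pairs with another BRG1 state (circles). The dashed line marks 2-fold. *Foxp3*, *Runx1* and *Foxo1* differed the most between WT and mosaic *Brg1*-sufficient cells, and *Ikzf3*, *Foxp1*, *Ikzf4*, *Ikzf1*, *Cbfb* and *Foxo3* differed more in a pair with another BRG1 state.

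Set against pairs with one BRG1 state, the genes fell apart into 2 sets. For *Foxp3*, *Ikzf2*, *Runx1* and *Foxo1* a pair with the same BRG1 state differed more than either total Treg pair with another BRG1 state. The place of *Ikzf2* depended on the trend along exon length. With that trend removed, its log2 fold change was 0.73 in the rKO1 pair. It was −0.47 between *Brg1*-deleted rKO1 cells with and without TAM and −0.21 between WT and mosaic *Brg1*-sufficient cells. For *Ikzf1*, *Ikzf3*, *Ikzf4*, *Cbfb*, *Foxo3* and *Foxp1* both pairs with the same state differed less than the rKO1 pair. Across the 3 pairs, which share no library, 4 of the 10 genes kept the sign of the difference with minus without BRG1. The share was 40.8% of 9226 genes tested in all 3. *Ikzf3* was higher and *Ikzf1*, *Ikzf4* and *Foxp1* were lower with BRG1. Signs in aTreg cells are by label, and *Ikzf1* lay within counting error there. The rKO1 and aTreg pairs gave the same sign for 8 of the 10 genes, against 63.0% of the 9226 genes. Between *Brg1*-deleted rKO1 cells with and without TAM 0 of the 10 were called, against 4.42% of 10299 genes, with *Foxp3* and *Ikzf2* as the largest differences.

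Inflamed mice were compared with healthy controls through several pairs that share libraries, so their counts are not independent. All rKO1 libraries held Y-linked reads and the healthy libraries had 0, so that sex and disease change together in these comparisons. Untreated rKO1 cells had 2 of the 10 genes called against WT, *Foxp3* and *Ikzf2*, both higher, with 15.7% of 10475 genes called. Against mosaic *Brg1*-sufficient cells 4 were called, with *Ikzf2* higher and *Foxp3*, *Foxo1* and *Foxp1* lower, and 17.3% of 10454 genes. *Foxp3* had opposite directions against these 2 controls. *Brg1*-reexpressed cells had 3 of the 10 called against WT, with *Ikzf2* and *Ikzf3* higher and *Foxp1* lower, and 17.1% of 10322 genes. Against mosaic *Brg1*-sufficient cells 4 were called, with *Ikzf2* higher and *Foxp3*, *Foxo1* and *Foxp1* lower, and 21.8% of 10334 genes. Mosaic *Brg1*-deleted cells had only *Foxp3* called against WT, which was higher, with 13.7% of 10202 genes. *Ikzf2* was thus higher and *Foxp1* lower in reexpressed cells against either control.

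The genes around these factors were taken from lists of textbook members. Of 17 factors and enzymes that act on the *Foxp3* locus, 16 were tested in the mosaic pair and 17 in the other pairs. In the mosaic and aTreg pairs 0 were called, and 3 fell after reexpression, against 12.8% of all genes. These were the immediate early nuclear receptors *Nr4a1* (156 to 49.8 CPM), *Nr4a3* (35.2 to 12.1 CPM) and *Nr4a2* (15.0 to 7.46 CPM). Between the rKO1 libraries that both lacked BRG1, *Nr4a1* was 3.87-fold higher (40.4 to 156 CPM) and *Nr4a2* 6.63-fold higher (2.25 to 15.0 CPM) after TAM, more than these falls, and *Nr4a3* 1.34-fold higher. *Nr4a1* and *Nr4a2* also differed 3.11-fold and 3.04-fold between WT and mosaic *Brg1*-sufficient cells. The list of 17 had a median log2 fold change of −0.42 after reexpression, against 0.06 over all genes tested. Its median was 0.16 and −0.24 in the mosaic and aTreg pairs. Of 15 FOXP3 protein partners and modifiers, 13 were tested in each pair, and only *Hif1a* was called, which fell 2.01-fold in mosaic *Brg1*-deleted cells. The shares of all genes called were 6.12%, 12.8% and 6.44% in the mosaic, rKO1 and aTreg pairs. Of 17 corepressors of Ikaros and RUNX proteins, 0 were called in the mosaic and rKO1 pairs, and *Tle1* and *Tle3*, 2 Groucho corepressors, were lower in the aTreg library labelled reexpressed (7.23 to 3.20 and 16.1 to 7.47 CPM).

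Of 15 genes that FOXP3 is known to activate, 3 were called in mosaic *Brg1*-deleted cells, against 6.12% of all genes. *Fgl2*, a secreted suppressor molecule, fell from 20.3 to 0.742 CPM and *Nrp1*, a semaphorin receptor of Treg cells, from 77.2 to 11.7 CPM, while the orphan receptor gene *Gpr83* rose from 326 to 749 CPM. After reexpression 4 were called, against 12.8% of all genes. *Fgl2* rose from 11.8 to 67.6 CPM, the inhibitory receptor gene *Ctla4* from 163 to 466 CPM and the actin-capping gene *Capg* from 807 to 1987 CPM, while *Gpr83* fell from 160 to 30.1 CPM. *Foxp3* itself did not differ beyond counting error in that pair. Of the 15, 2 were called lower in WT than in mosaic *Brg1*-sufficient cells, with BRG1 in both, against 9.32% of all genes. Between the rKO1 libraries that both lacked BRG1, 0 of the 15 were called, against 4.42% of all genes. In aTreg cells *Fgl2* was higher in the library labelled reexpressed (25.9 to 64.8 CPM) and *Nrp1* lower (106 to 41.1 CPM). They were the 2 called of 15 tested, against 6.44% of all genes. The list median was 0.04, 0.32 and −0.25 in the mosaic, rKO1 and aTreg pairs. *Ikzf2* and *Ikzf4* are also members of this list.

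Of 10 genes that FOXP3 is known to repress, 6 were tested in the mosaic pair, and *Il7r* (114 to 22.4 CPM), *Nrn1* (12.5 to 1.94 CPM) and *Pde3b* (6.33 to 1.85 CPM) fell without BRG1, against 6.12% of all genes. All 3 were also called lower in WT than in mosaic *Brg1*-sufficient cells, by 2.30-fold, 2.44-fold and 2.23-fold, with BRG1 in both. Of 8 tested after reexpression, *Tcf7* (183 to 26.6 CPM) and *Il4* (45.4 to 12.4 CPM) fell, against 12.8% of all genes. *Il4* was 3.96-fold higher (11.5 to 45.4 CPM) in treated than in untreated *Brg1*-deleted rKO1 cells, more than this fall, while *Tcf7* differed by 1.36-fold there. In aTreg cells *Pde3b* (1.41 to 6.25 CPM) and *Il4* (2.49 to 9.14 CPM) were called higher in the library labelled reexpressed, 2 of 8 tested, against 6.44% of all genes. The list medians were −0.82, −0.33 and 0.15 in the mosaic, rKO1 and aTreg pairs.

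Of 17 genes that FOXO factors are known to drive, 16 were tested in the mosaic and aTreg pairs and 17 in the rKO1 pair. In the mosaic pair 1 rose and 1, *Il7r*, fell without BRG1, against 6.12% of all genes, with a list median of 0.22. After reexpression 6 fell and 0 rose, against 12.8% of all genes in either direction. The largest falls were in the T cell factor gene *Tcf7*, the lymph node homing receptor gene *Ccr7* (356 to 70.1 CPM) and *Sesn3* (64.5 to 24.2 CPM). *Tcf7* and *Il7r* are also on the list of genes that FOXP3 represses, so that their falls count in both lists. *Pik3ip1* (71.2 to 33.8 CPM), *Irs2* (33.4 to 15.1 CPM) and *Klf4* (13.1 to 1.49 CPM) are named after their values were seen. *Klf4* was 6.24-fold higher in treated than in untreated *Brg1*-deleted cells, and *Ccr7* and *Sesn3* differed by 1.29-fold and 1.05-fold there. The list median was −0.33 after reexpression, and *Foxo1* itself was 1.23-fold lower in the reexpressed cells. In aTreg cells only *Irs2* was called, from 25.3 to 12.2 CPM, 1 of 16 tested, against 6.44% of all genes. Of 17 regulators of FOXO along the AKT and mTOR pathway, 15 were tested. *Sgk1*, a kinase that phosphorylates FOXO proteins, rose 2.19-fold after reexpression, from 20.7 to 45.2 CPM, with 12.8% of all genes called. *Ywhaz*, which encodes a 14-3-3 protein, was 2.28-fold lower in the aTreg library labelled reexpressed, with 6.44% of all genes called. Each was the only gene of this list called in its pair.

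Markers of other cells moved in some of these pairs. After reexpression 7 of the 8 myeloid genes tested, of 10 listed, were called lower, against 12.8% of all genes. The 10 summed to 86.8 CPM, against 209 CPM in the deleted cells. In the aTreg library labelled reexpressed 3 of 8 tested were called higher, against 6.44% of all genes, with sums of 793 against 505 CPM. The summed level of 8 B cell genes lay between 16.0 and 77.4 CPM in total Treg and between 73.2 and 95.6 CPM in aTreg libraries, with *Pax5* at 3 reads or fewer in 6 of the 8. The 6 plasma cell genes summed to 162–393 CPM, mostly through *Xbp1*, which Treg cells express too, with *Tnfrsf17* at 3 reads or fewer in 7 libraries. The 7 CD8 T or NK cell genes summed to 15.4–36.3 CPM. The part of these in the differences above was not tested. Leaving the 6 erythroid genes out of the scaling moved the median of all genes by at most 0.000780 on the log2 scale.

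Over the 6 total Treg libraries the pattern of *Foxp3*, as log2 CPM, was most like that of *Wbp1l* (Pearson's r = 0.997), *Zfp664* (r = 0.992) and *Dhx36* (r = 0.991) among 5160 genes with at least 20 CPM in all 6. The levels of *Wbp1l* spanned only 38.1 to 46.7 CPM. Among the other genes of the 10 with at least 20 CPM in all 6, *Runx1* followed *Foxp3* the closest (r = 0.934), and *Cbfb* and *Foxp1* ran opposite (r = −0.874). These are descriptions over 6 points that share libraries and scaling.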

How the data were processed

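RNA was sequenced from sorted Treg cells with a SMART-Seq v4 kit, which does not mark strand. The deposited values are FPKM made by the authors, a unit judged from the values because the headers name none. The submitters' processing notes name HISAT2 2.0, StringTie 1.3.3b, featureCounts 1.5.0-p3 and build mm10, with no role or order, and the annotation release is not given in the sources used here. Replicates were not pooled, as there was 1 library per condition.

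Whole reads, within 0.02 reads, were recovered from FPKM with GENCODE M21 (GRCm38) merged exon lengths and 1 total per library. For total Treg cells 93.4% of 26020 genes came out whole with the annotated length, 1700 more with a length estimated from the values, *Foxp3* and *Runx1* among them, and 8 did not. For aTreg cells all 21242 did. The library totals implied by the deposited total Treg FPKM were 0.817 to 1.09 times the summed recovered reads. A scaling of libraries by the authors may thus be part of those values. Of 53465 identifiers, 105 were not in the annotation and were left out of the gene names.

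Reads were scaled by TMM within each experiment (trims of 0.3 and 0.05) and tested from 5 CPM in either library, with a prior of 0.125 reads. A gene was called at 2-fold, and no p-value was computed. Besides the 10 genes, the text names the called genes of a list where they are 5 or fewer, otherwise the 3 largest per direction that reach 20 CPM, and the 3 genes most like *Foxp3*. Some list genes are not reported here. The steps were tested on simulated data. The 10 genes and the lists were chosen with earlier results of these data known, and the alternatives without the exon length trend and without erythroid genes were chosen after seeing the data. Scripts ran in Python 3.11.15 with pandas 2.3.3, NumPy 2.4.6 and SciPy 1.17.1, and plots came from matplotlib 3.10.9.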

Additional observations from a re-analysis of the deposited data

Results flagged for a closer look

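Of the 10 genes, 5 had differences of opposite sign, each beyond counting error, between pairs of libraries with and without BRG1. Values are log2 differences with minus without BRG1, by label in aTreg cells. *Foxo3* also changed sign, but its 0.04 in the aTreg pair lay within counting error. The difference between the pairs was not tested, as each has 1 library per state. *Foxp3* differed by 1.13 in the mosaic pair and by −0.59 in the aTreg pair, and the *Foxp3* allele differs within the first and not within the other. *Ikzf2* differed by −0.47 in the mosaic pair, 0.44 in the rKO1 pair and 0.24 in the aTreg pair. *Cbfb* had the same order of signs, with −0.12, 0.49 and 0.35. *Foxo1* differed by 0.23, −0.30 and −0.45, and *Runx1* by 0.12, −0.22 and −0.21.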

How the results depend on the processing

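Across 110 fold changes (10 genes in 11 comparisons), 97 kept their direction under all 7 alternative scalings, priors and length corrections. The 13 that did not were all uncalled, the largest with a size of 0.22. All 21 calls kept their direction, 14 were called under all 7, and 5 uncalled values were called under some. No paired analysis was possible because each condition had 1 library and the labels carry no replicate numbers. Scaling by total reads moved the median of all genes by −0.36 to 0.37 on the log2 scale, and the share of calls that were higher moved from 34.1% to 50.6% in the mosaic pair, 55.9% to 22.9% in the rKO1 pair, 54.8% to 78.0% for untreated rKO1 against WT, 47.3% to 78.0% for untreated rKO1 against mosaic *Brg1*-sufficient, 48.8% to 35.3% for treated against untreated *Brg1*-deleted, 56.9% to 45.8% for reexpressed against WT and 54.0% to 72.8% for untreated rKO1 against mosaic *Brg1*-deleted cells. With the FPKM as deposited it moved from 44.9% to 57.4% for WT against mosaic *Brg1*-sufficient and 48.8% to 37.6% for mosaic *Brg1*-deleted against WT. The cause of the changes below was not tested.

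Numbers in brackets are the genes called over all genes at that setting, with the number tested at 1.5-fold. Of the 10 genes, the mosaic pair had 1 called, 0 with total reads (607), 2 at 1.5-fold (2027 of 10066) and 0 without *Foxp3*. The rKO1 pair had 2 called, 5 at 1.5-fold (3177 of 10316) and 1 with the length trend removed (1258). The aTreg pair had 0 called and 2 at 1.5-fold (1993 of 10035). Untreated rKO1 against WT had 2 called and 1 without *Foxp3*, and against mosaic *Brg1*-sufficient 4 called and 2 with total reads (2089). Treated against untreated *Brg1*-deleted had 0 called and 2 at 1.5-fold (1585 of 10299). WT against mosaic *Brg1*-sufficient had 2 called and 1 without *Foxp3*. It also had 1 each with median-of-ratios size factors (926), the FPKM as deposited (874) and the length trend removed (895). At 1.5-fold reexpressed cells had 6 called against WT (3474 of 10322) and 9 against mosaic *Brg1*-sufficient (4549 of 10334). Mosaic *Brg1*-deleted against WT had 1 called, 3 with total reads (1466), 4 at 1.5-fold (3420 of 10202) and 0 without *Foxp3*. Untreated rKO1 against mosaic *Brg1*-deleted had 2 called and 4 at 1.5-fold (3413 of 10409). It had 1 each with total reads (1726), median-of-ratios size factors (1548), the FPKM as deposited (1467) and the length trend removed (1539).

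Over all genes, in the order mosaic, rKO1, aTreg, untreated against WT, untreated against mosaic *Brg1*-sufficient, treated against untreated, WT against mosaic *Brg1*-sufficient, reexpressed against WT, reexpressed against mosaic *Brg1*-sufficient, mosaic *Brg1*-deleted against WT and untreated against mosaic *Brg1*-deleted, 616, 1316, 646, 1645, 1808, 455, 945, 1767, 2250, 1401 and 1573 genes were called. With no filter on low values these were 7898, 8920, 7632, 9605, 10015, 7469, 8303, 9253, 10161, 9590 and 9660. At 20 CPM or more they were 265, 587, 198, 771, 914, 136, 486, 873, 1281, 672 and 756. At 1.5-fold they were 2027, 3177, 1993, 3823, 3961, 1585, 2910, 3474, 4549, 3420 and 3413. With 138 to 349 reads in total Treg libraries, differences of *Foxo3* have the widest counting intervals of the 10 genes.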

Other observations

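The corepressors of Ikaros and RUNX proteins, a list of 17 genes that were all tested, differed between untreated rKO1 and healthy cells by an amount that depended on the control. Against mosaic *Brg1*-sufficient cells 6 were called, all lower, with a median log2 fold change of −0.82, against 17.3% of all genes. Against WT cells 1 was called, with a median of −0.42, against 15.7% of all genes, and against mosaic *Brg1*-deleted cells 1, with a median of −0.40, against 15.1%. *Brg1*-reexpressed cells had 5 lower and 1 higher than mosaic *Brg1*-sufficient cells, with a median of −0.55, against 21.8% of all genes, and 2 lower than WT cells, with a median of −0.12, against 17.1%. These comparisons share libraries, and the differences between them were not tested.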
